A study of Macaca fascicularis with 11 samples.

Results

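FOXA2, SOX17 and IHH, 3 of the 19367 genes in the count table, were followed across the lineages of cultured cynomolgus macaque embryos. The study listed all 3 among its endoderm genes, and the deposited table names genes by Ensembl identifier only, so each symbol was paired with its identifier through the supplementary gene lists: ENSMFAG00000002341 for FOXA2, ENSMFAG00000043730 for SOX17 and ENSMFAG00000042800 for IHH. In these embryos all 3 genes were highest in endoderm-like cells, SOX17 was also found in small groups of cells elsewhere, and no test of mutant against wild-type embryos was passed by any of the 3 in the lineages where its counts allowed one: endoderm-like cells for FOXA2, these with trophoblast-like and extraembryonic mesenchyme-like cells for IHH, and those 3 with Epi-derived and amnion-like cells for SOX17.

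FOXA2 is a forkhead transcription factor that opens closed chromatin at endoderm and liver genes, and it also marks the node, the notochord and definitive endoderm. SOX17 is an HMG-box transcription factor required for endoderm, and it is also used by primate primordial germ cells and by arterial and haemogenic endothelium. IHH is a secreted hedgehog ligand. It is made by the visceral endoderm and yolk sac endoderm of mammalian embryos and is received by neighbouring cells through Patched and Smoothened, with GLI factors acting downstream. At the stages studied, the endoderm of a primate embryo is mostly extraembryonic hypoblast-derived tissue, whereas definitive endoderm arises from the gastrulating epiblast.

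Droplet-based 3-prime single-cell RNA sequencing was performed on 11 libraries, 6 of them from 12 wild-type embryos (2 libraries for each of Day 10, Day 12 and Day 14) and 5 from 11 ISL1 hypomorphic mutants (1 at Day 10, 2 at Day 12 and 2 at Day 14). All embryos were thawed blastocysts grown in vitro without a uterus, and 1 to 3 embryos were combined in a library. The mutants came from zygotes injected with Cas9 and 2 guide RNAs against ISL1, a LIM-homeodomain factor of the amnion, so a mutant embryo is a mosaic of edited alleles and not a single clone. The wild-type embryos carried no edit. ISL1 itself was measured in amnion-like cells at 144 to 226 CPM (transcript counts scaled to the same total in every sum of cells) in 3 wild-type libraries and at 35.1 to 233 CPM in 4 mutant libraries. The ranges overlapped. ISL1 was also among the markers that named amnion-like clusters, so these cells were chosen in part by it. The edits lie near the start of the coding sequence, while the reads come from the 3-prime end of the transcript. For both reasons this count does not check the labels.

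Lineages were rebuilt by clustering the 33330 cells without the 3 genes, and clusters were named from marker genes. A cluster named endoderm-like was found on each day, with 91, 192 and 199 cells, and all 14 endoderm markers, among them the apolipoprotein APOA1 and the thyroxine carrier TTR, were present in each of the 3. Together they held 482 cells, 181 from wild-type and 301 from mutant libraries, between 11 and 132 per library. Depth differed with genotype and day: the median number of transcript molecules (UMIs) per endoderm-like cell ran from 14742 to 73337.5 in the wild type and from 5830 to 55153.5 in the mutant, and was lowest in mutant Day 14 replicate 1. Whole libraries held 36654977 to 164808415 UMIs.

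FOXA2 was measured in endoderm-like cells of all 11 libraries, at 148 ± 40.9 CPM (SD, n = 11). In wild-type endoderm-like cells FOXA2 was at 165 and 128 CPM on Day 10, at 149 and 232 CPM on Day 12 and at 172 and 114 CPM on Day 14. In the mutant, FOXA2 was at 101 CPM on Day 10, at 121 and 122 CPM on Day 12 and at 121 and 202 CPM on Day 14. The genotypes overlapped: 4 of the 5 mutant libraries sat in the lower range of FOXA2 values, and mutant Day 14 replicate 2, which rests on 11 cells, sat near the top.

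SOX17 stood at 370 ± 123 CPM (SD, n = 11) in the same cells. Wild-type libraries gave 302 and 335 CPM of SOX17 on Day 10, 318 and 247 CPM on Day 12 and 295 and 291 CPM on Day 14. Mutant libraries gave 281 CPM of SOX17 on Day 10, 424 and 507 CPM on Day 12 and 416 and 658 CPM on Day 14. The 6 wild-type libraries were close to each other and the mutant Day 10 library sat among them, while all 4 mutant libraries of Day 12 and Day 14 lay above every wild-type library. The highest values, 507 and 658 CPM, came from libraries of 1 embryo each, with 25 and 11 endoderm-like cells.

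IHH varied most, at 331 ± 153 CPM (SD, n = 11). Wild-type endoderm-like cells held 216 and 180 CPM of IHH on Day 10, 290 and 385 CPM on Day 12 and 184 and 579 CPM on Day 14. Mutant cells held 299 CPM of IHH on Day 10, 262 and 638 CPM on Day 12 and 375 and 237 CPM on Day 14. Replicates of the same genotype and day differed as much as any groups did, with the Day 14 wild-type pair and the Day 12 mutant pair the farthest apart.

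**Figure D1:**
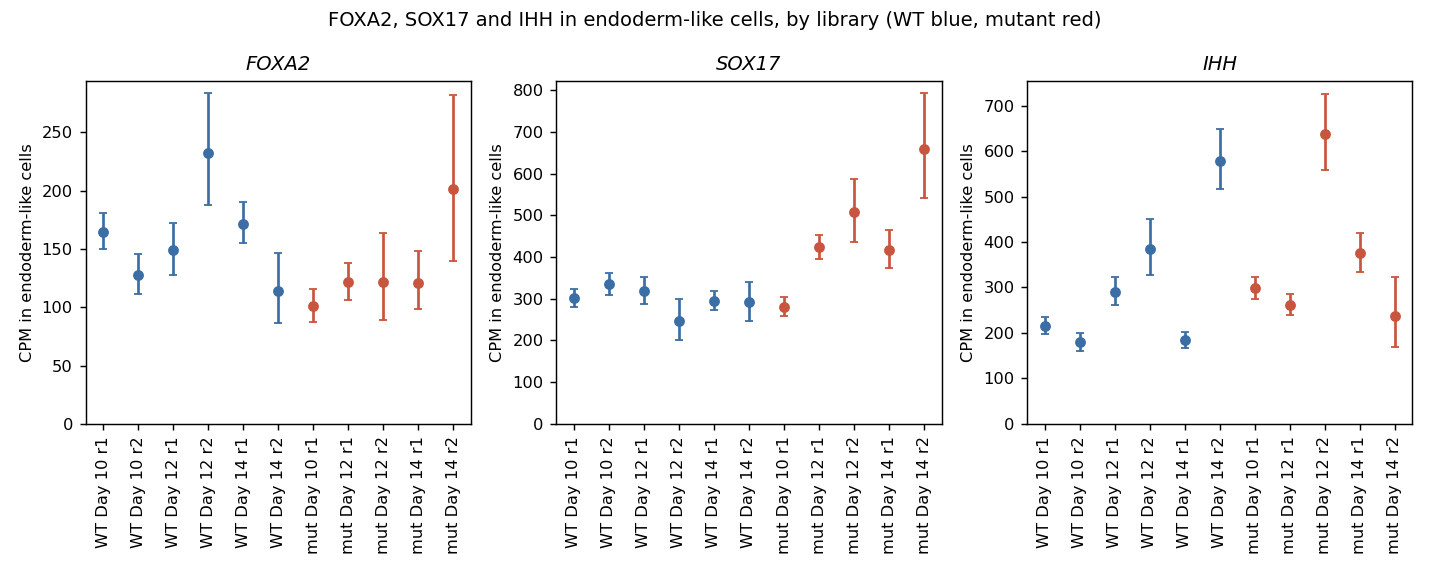
Level of FOXA2, SOX17 and IHH in endoderm-like cells of each library, in CPM of the summed UMIs, by day and genotype; each point is 1 library and each bar is the exact 95% interval of its count. The 4 mutant SOX17 points of Day 12 and Day 14, from 416 to 658 CPM, lie above all 6 wild-type points, whereas the FOXA2 and IHH points of the genotypes overlap.

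The mutant was compared with the wild type in endoderm-like cells with all days in 1 model, which asks whether the levels of the 3 genes in this lineage differed between ISL1 mutant and wild-type embryos. None of the 3 genes passed the false discovery rate of 1% (edgeR quasi-likelihood test over all genes), against a background of 4 of 8847 genes called, 0.0452%. SOX17 had a log2 fold change of 0.51 (SE 0.22, 95% interval 0.04 to 0.97, unadjusted p = 0.034, adjusted p = 0.483), and 9.30% of all genes likewise had an unadjusted p under 0.05. FOXA2 had a log2 fold change of -0.37 (SE 0.22, interval -0.84 to 0.10, adjusted p = 0.637). IHH had a log2 fold change of 0.20 (SE 0.30, interval -0.46 to 0.85, adjusted p = 0.919). The FOXA2 and SOX17 values differ in sign, and of the 3 intervals only that of SOX17 leaves out 0, before adjustment for the number of genes.

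The separation of SOX17 was counted across all genes in the same way: 176 of 8847 genes, 1.99%, had all 4 mutant libraries of Day 12 and Day 14 above all 6 wild-type libraries, and 77, 0.870%, had them all below. Against the 4 wild-type libraries of the same days alone, 4.42% of genes had all 4 mutant libraries on one side, 2.96% above and 1.46% below. These groupings were chosen after the SOX17 values were seen and carry no test.

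On Day 12 alone, SOX17 had a log2 fold change of 0.64 (SE 0.32, interval -0.06 to 1.33, adjusted p = 0.789) and FOXA2 of -0.67 (SE 0.34, interval -1.41 to 0.07, adjusted p = 0.794), by edgeR on 2 libraries a genotype within the fit of all groups. Both mutant libraries were above both wild-type libraries for SOX17 and below them for FOXA2, patterns that 21.5% and 14.5% of all genes showed on that day (36.1% in either direction). On Day 14 SOX17 had a log2 fold change of 0.84 (SE 0.32, interval 0.14 to 1.54, unadjusted p = 0.023, adjusted p = 0.660) and again did not overlap, as did 17.4% of genes in that direction, 20.3% in the other and 37.7% in all. FOXA2 on Day 14 was near 0, at 0.08 (SE 0.35, interval -0.67 to 0.84), and IHH was at 0.37 (SE 0.51) on Day 12 and -0.24 (SE 0.51) on Day 14. No gene of the 9740 tested passed at 1% on either day (0.00%), with 640 genes (6.57%) on Day 12 and 713 (7.32%) on Day 14 at an unadjusted p under 0.05, and DESeq2 called 4 and 22. These comparisons share libraries with the model of all days. Without mutant Day 14 replicate 2 the Day 14 value of SOX17 was 0.55 (unadjusted p = 0.168), and without wild-type Day 12 replicate 2 its Day 12 value was 0.36.

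A difference of the mutant effect between Day 14 and Day 12 was tested as well. For FOXA2 it was 0.76 on the log2 scale (SE 0.49, interval -0.30 to 1.82, adjusted p = 0.978), for SOX17 it was 0.20 (SE 0.45) and for IHH -0.60 (SE 0.72). By edgeR 0 of 9740 genes passed (0.00%) and 465 (4.77%) had an unadjusted p under 0.05, and DESeq2 called 5.

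**Figure D2:**
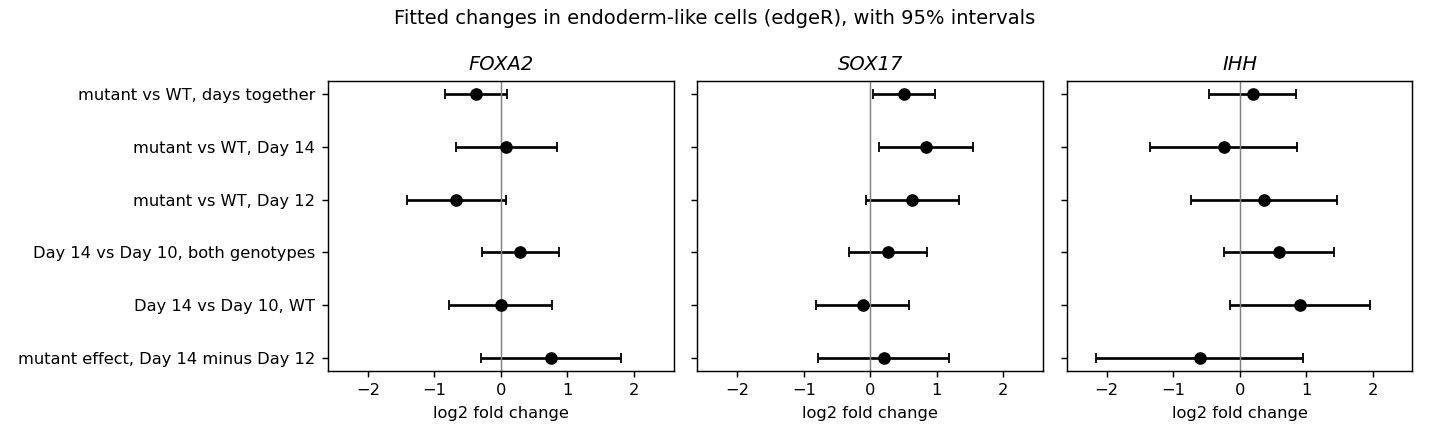
Log2 fold changes of FOXA2, SOX17 and IHH in the 6 comparisons of endoderm-like cells, with 95% intervals from edgeR. SOX17 lies to the mutant side on both days, at 0.64 on Day 12 and 0.84 on Day 14, and no value passed the false discovery rate of 1%.

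Depth went with genotype in these cells, so the comparison was also made in deeper cells. In the cells with 10000 or more UMIs alone, a comparison chosen after seeing the data, the SOX17 log2 fold change was 0.48 (SE 0.22, unadjusted p = 0.043, adjusted p = 0.566) over all days and 0.76 on Day 14. FOXA2 in those cells was at -0.35 and IHH at 0.21 over all days. With each library clustered alone the class held other cells: it was lost in wild-type Day 12 replicate 2 and mutant Day 14 replicate 2 and grew from 16 to 54 cells in wild-type Day 12 replicate 1. With the 9 libraries left, SOX17 had a log2 fold change of 1.23, FOXA2 of 0.55 and IHH of 1.36 over all days. On Day 12 the values were 2.84 for SOX17 (adjusted p = 0.117, edgeR), 2.00 for FOXA2 (adjusted p = 0.2503) and 2.91 for IHH (adjusted p = 0.203). The cause of these differences was not tested.

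Endoderm-like cells also held RNA of other lineages' markers, at ranges that overlapped between the genotypes. The 12 trophoblast markers summed to 222 to 1171 CPM in wild-type and 136 to 1378 CPM in mutant endoderm-like cells, with a higher median in the mutant, 884 against 325 CPM. The 9 Epi-derived markers summed to 452 to 1369 CPM (median 784) and 763 to 1328 CPM (median 1039), against 53093 to 89700 CPM for the 14 endoderm markers over all libraries. Of the lists that share SOX17 as a known gene, the 3 endothelial markers with an identifier (of 5) summed to 11.03 to 77.5 CPM in the wild type and 19.4 to 61.7 CPM in the mutant, with TEK at 0 in the wild type, and the 4 germ cell markers (of 6), among them PRDM1, which endoderm expresses too, to 37.7 to 64.6 and 35.6 to 76.7 CPM. The part of these markers in the SOX17 values was not tested.

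Over the culture from Day 10 to Day 14, FOXA2 and SOX17 in wild-type endoderm-like cells had log2 fold changes of -0.0019 (SE 0.34, interval -0.78 to 0.77) and -0.12 (SE 0.31, interval -0.81 to 0.58), and both intervals held 0. IHH had a log2 fold change of 0.91 (SE 0.46, interval -0.15 to 1.97, unadjusted p = 0.083, adjusted p = 0.665) by edgeR. The IHH value rests on wild-type Day 14 replicate 2, at 579 CPM, since without that library it was -0.03. With the genotypes together, Day 14 against Day 10 gave 0.30 (SE 0.27) for FOXA2, 0.27 (SE 0.27) for SOX17 and 0.59 (SE 0.38, adjusted p = 0.542) for IHH. With 1 library left out at a time, the IHH value lay between 0.077 and 0.81 and that of FOXA2 between 0.13 and 0.51. None of the 3 passed, against 0 of 8561 genes in the wild type (0.00%, with 733, 8.56%, at an unadjusted p under 0.05 and 29 called by DESeq2) and 3 of 8847, 0.0339%, with the genotypes together.

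The 3 genes were placed across the lineages next. Each was highest in endoderm-like cells in all 11 libraries. These lineages were rebuilt from the same cells and the genes were chosen as endoderm genes, so the levels below are a description. FOXA2 lay at 0 to 1.70 CPM in Epi-derived cells (epiblast and its descendants), at 0 to 0.60 CPM in trophoblast-like cells and at 0 to 0.413 CPM in extraembryonic mesenchyme-like cells (ExE-Mech-like). IHH lay at 0 to 1.29 CPM in Epi-derived, 0 to 0.850 CPM in trophoblast-like and 0 to 0.963 CPM in ExE-Mech-like cells. For FOXA2 and IHH the order below endoderm cannot be read, because the ranges of the other lineages overlapped and each rested on few UMIs. SOX17 differed: Epi-derived cells held 0 to 30.2 CPM (mean 7.95, SD 8.96, n = 11), against 0.0373 to 1.94 CPM in trophoblast-like cells and 0 to 1.40 CPM in ExE-Mech-like cells, and those ranges overlapped too.

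Endoderm-like cells were 1.45% of all cells. They held 2003 of the 2157 FOXA2 UMIs, or 92.9%, and 3809 of the 4052 IHH UMIs, or 94.0%. They held only 4726 of the 6841 SOX17 UMIs, or 69.1%. A further 898 SOX17 UMIs, 13.1%, lay in Epi-derived cells, 632, 9.24%, in unnamed clusters and 511, 7.47%, in trophoblast-like cells. By library the endoderm-like share of SOX17 UMIs ran from 41.0% to 97.2%, lowest in wild-type Day 14 replicate 1, while that of FOXA2 ran from 88.7% to 99.6% and that of IHH from 74.1% to 98.8%.

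**Figure D3:**
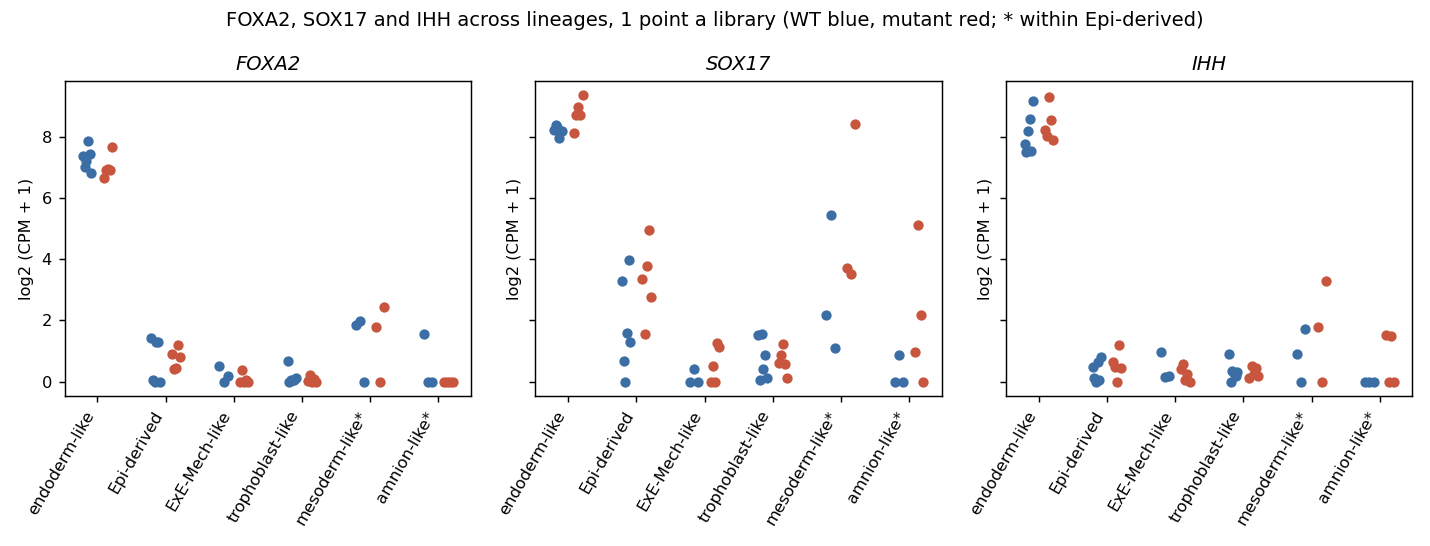
Level of FOXA2, SOX17 and IHH in each library and lineage as log2(CPM + 1), with mesoderm-like and amnion-like cells shown as subsets of the Epi-derived; each point is 1 library, blue for wild type and red for mutant. Endoderm-like values from 101 to 658 CPM stand above every other lineage of the same library, and the highest SOX17 value elsewhere is the 341 CPM of mesoderm-like cells in mutant Day 14 replicate 1. Most cells of that sum lay in a cluster that scored 0.939 on a mesoderm list and 0.813 on amnion.

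Single cells were counted next, to see whether the 3 genes shared cells. FOXA2 was detected in 374 of the 482 endoderm-like cells, SOX17 in 418 and IHH in 423. The 21765 trophoblast-like cells were used as a comparison for misplaced cells and for free RNA left after correction. The counts had already been corrected for free RNA, so they do not measure its full level. UMIs of FOXA2 were found in 28 of the trophoblast-like cells, of SOX17 in 204 and of IHH in 108. The median was 20429 UMIs per trophoblast-like cell against 15230.5 in the endoderm-like cells. Of the 204 cells with SOX17, 45 lay in 1 Day 12 cluster of 324 cells, so the SOX17 count is not an even background. The 3 genes were found together in 324 endoderm-like cells, 67.2% (exact binomial interval 62.8% to 71.4%), and 9 cells, all of them mutant, held none of the 3. The interval covers counting error only, and the share that separate detection of the 3 genes would give was not computed. By genotype the share with all 3 was 82.9% in the wild type (150 of 181 cells) and 57.8% in the mutant (174 of 301).

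The share was also read at equal depth. With each cell thinned to 10000 UMIs and 157 shallower cells left out, 13 of them wild-type and 144 mutant, all 3 genes were found together in 48.8% of 168 wild-type cells and 49.0% of 157 mutant cells, or 48.9% in all. These are shares of pooled cells, not of replicates, and no test between the genotypes was made. By library the thinned share ran from 30.0% to 58.3% in the wild type and from 28.0% to 100% in the mutant, the last in the 7 cells of mutant Day 14 replicate 2. FOXA2 was then detected in 213 of 325 cells, SOX17 in 275 and IHH in 262, against 6, 78 and 39 of 17807 trophoblast-like cells. The largest class of partly positive cells held SOX17 and IHH without FOXA2, 69 of 325 cells, and the median thinned cell held 1 FOXA2, 3 SOX17 and 2 IHH UMIs.

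**Figure D4:**
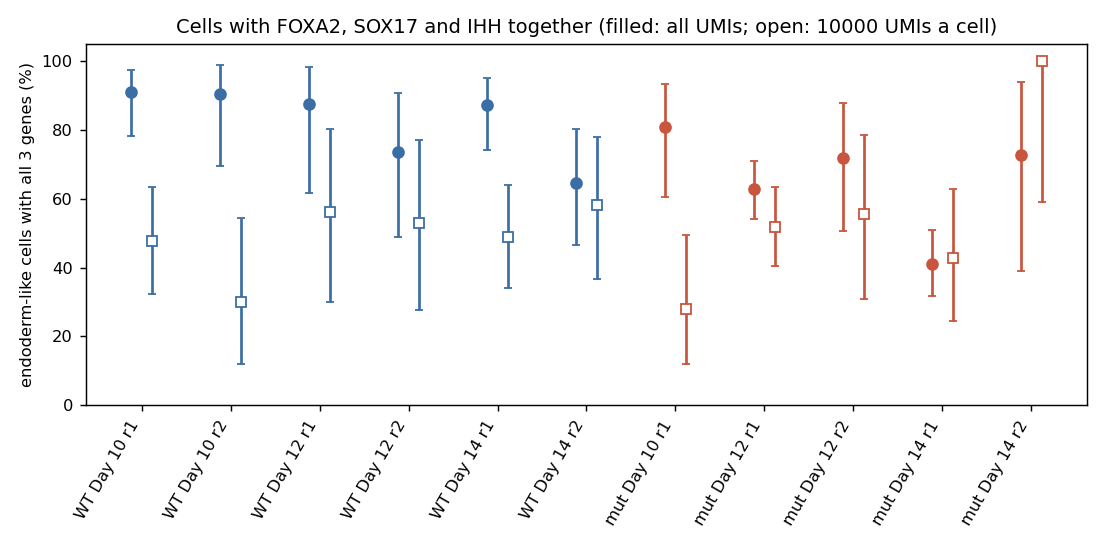
Share of endoderm-like cells in each library that hold FOXA2, SOX17 and IHH together, in percent, with all UMIs (filled circles) and after thinning to 10000 UMIs a cell (open squares); bars are exact 95% binomial intervals, blue for wild type and red for mutant. Before thinning the libraries run from 64.7% to 90.9% in the wild type and from 41.1% to 80.8% in the mutant, and after it most of the intervals overlap.

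Levels also varied from cell to cell. Over the 482 endoderm-like cells the interquartile range of FOXA2 values spanned 38.9 to 194 CPM, of SOX17 values 131 to 528 CPM and of IHH values 101 to 435 CPM, at coefficients of variation of 0.973, 0.914 and 0.969. Counting error is part of this spread, since a median cell held 2 FOXA2, 5 SOX17 and 4 IHH UMIs.

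The genes whose levels followed the 3 most closely were endoderm genes too. Over 41 sums of a library and a lineage, which share libraries and depth, the log2(CPM + 1) of FOXA2 correlated most with OTX2, a head and visceral endoderm homeobox factor (Pearson r = 0.988), then IHH (0.987), FOXA1 (0.987), and further down with MTTP, F2, LGR5, LGALS2, NRG1 and PRDM1 (0.980). For SOX17 the closest was PRDM1, a transcriptional repressor (0.970), then GSC (0.968), OTX2 (0.966), FOXA2 (0.963), and further down DPP6, CDA, TNNC1, FOXA1 and NRG1 (0.948). For IHH, FOXA1 (0.993), MTTP, F2 and FOXA2 were among the closest. Any gene restricted to the endoderm-like cells scores high on this measure, so the order among such genes rests on small differences. F2 and CDA were also among the markers that named the endoderm-like clusters, so their place follows in part from the naming. SOX17 ranked 25 for FOXA2 and 59 for IHH.

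Of 25 endoderm regulators on a fixed list, 11 could be paired with an identifier and tested. Pairing went through the study's gene lists, drawn mainly from these same cells, so these data helped choose the 11. The part of that choice in the shares below was not tested. None of the 11 passed in any of the 6 comparisons of endoderm-like cells, in which 0.00% to 0.0452% of all genes were called. Their median log2 fold change, mutant against wild type over all days, was 0.07 against -0.01 for all genes. For Day 14 against Day 10 with the genotypes together, 4 of the 11 had an unadjusted p under 0.05 by edgeR, against 13.8% of all genes. These were MIXL1, given below, LMO2 (log2 value 1.09), LGR5 (0.84) and FOXA1 (0.80). Those with high mean counts in endoderm-like cells, not scaled for gene length, included GSC, a homeobox factor of the organizer and anterior visceral endoderm (284 CPM), LHX1 (187 CPM), OTX2 (115 CPM) and MIXL1 (95.6 CPM). MIXL1, a homeobox factor of primitive streak and endoderm, came nearest to a call over time, with a Day 14 against Day 10 log2 value of -1.995 (SE 0.45, adjusted p = 0.058, edgeR). LHX1 and LMO2 had log2 fold changes of -0.66 (SE 0.29) and -0.65 (SE 0.30) in the mutant, neither past the test.

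Of 21 hedgehog pathway genes, only CDON and BMP4 could be paired, so reception of IHH, through PTCH1, SMO and the GLI factors, was not analysed here. CDON, a hedgehog co-receptor, lay at 12.3 to 30.2 CPM in endoderm-like cells. BMP4, a signal that hedgehog can regulate in extraembryonic tissues, lay at 9.25 to 71.2 CPM there and at 98.6 to 267 CPM in ExE-Mech-like cells. Neither passed in any comparison. In amnion-like cells of Day 14 BMP4 had a mutant log2 fold change of -1.21 (SE 0.33, interval -1.95 to -0.47, unadjusted p = 0.0044, adjusted p = 0.166, edgeR). The mutant value of BMP4 in endoderm-like cells differed in sign between days, at -1.92 on the log2 scale on Day 12 (SE 0.58, adjusted p = 0.543, edgeR) and 1.27 on Day 14 (SE 0.59, adjusted p = 0.683), and was 0.14 (SE 0.50) over all days. The difference between the days was 3.20 (SE 0.83, unadjusted p = 0.0021, adjusted p = 0.693).

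Outside the endoderm-like cells, high counts belonged mainly to SOX17. Of 32848 such cells, 95 held 5 or more SOX17 UMIs, against 4 for FOXA2 and 6 for IHH. These 95 cells lay in Epi-derived cells (39), unnamed clusters (32), trophoblast-like (22) and ExE-Mech-like cells (2). A threshold of 5 UMIs was set after seeing the counts.

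In Epi-derived cells SOX17 was unevenly spread over libraries. Wild-type libraries held 87 and 14 UMIs on Day 10, 0 and 11 on Day 12 and 400 and 4 on Day 14. Mutant libraries held 178 on Day 10, 24 and 70 on Day 12 and 94 and 16 on Day 14. Most of the wild-type SOX17 came from Day 14 replicate 1, and wild-type Day 12 replicate 1 had only 14 Epi-derived cells. As levels these were 0 to 14.7 CPM in the wild type and 1.96 to 30.2 CPM in the mutant, and the log2 fold change of SOX17 was 1.32 (SE 0.78, interval -0.39 to 3.03, adjusted p = 0.379, edgeR, 9 of 11721 genes called, 0.0768%, and 19.1% at an unadjusted p under 0.05). With 1 library left out at a time it lay between 0.91, without mutant Day 12 replicate 2, and 2.07, without wild-type Day 14 replicate 1. FOXA2 and IHH, with 94 and 33 UMIs, were under the filter on low counts.

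The 39 Epi-derived cells with 5 or more SOX17 UMIs, 22 wild-type and 17 mutant, were read gene by gene, with groups chosen after their values were seen. Of the 22 wild-type cells, 18 came from Day 14 replicate 1, and of the 17 mutant cells, 8 came from Day 14 replicate 1. In 16 of them, 12 wild-type (9 of them from wild-type Day 14 replicate 1) and 4 mutant, MIXL1 was at 3 or more UMIs and TFAP2C below. By day, 6 of the 16 were Day 10 cells and 10 were Day 14 cells. The paper proposes that the mesoderm-like cells of Day 10 are likely extraembryonic mesoderm. These 16 cells held MESP1, a factor of early mesoderm, in 15, EOMES in 14, LHX1 in 13 and GSC in 10. FOXA2 was held in 7, at a median of 28.5 SOX17 UMIs over the 16 cells. TBXT, a mesoderm marker in the paper, was held in only 4 of the 16, at 8.75 CPM. Since they were chosen by MIXL1, genes found with MIXL1 follow in part from the choice, and cells with MIXL1 but no SOX17 were not set beside them. A single cell of wild-type Day 14 replicate 1 held 54 SOX17, 17 FOXA2, 39 GSC and 20 LHX1 UMIs.

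In another 13 cells, 6 wild-type, all from Day 14 replicate 1, and 7 mutant, TFAP2C, a factor of primordial germ cells and amnion, was at 3 or more UMIs and MIXL1 below. They held the pluripotency factor NANOG in 11, DND1, a germ cell RNA-binding protein, in 9, PRDM1 in 7 and SOX15 in 5. The 16 cells with MIXL1 held these genes too, NANOG in 9, DND1 in 13, PRDM1 in 9 and SOX15 in 5. As levels NANOG was at 129 CPM in the cells with TFAP2C and 25.3 CPM in those with MIXL1, and DND1 at 54.7 and 47.6 CPM. In the same order SOX15 was at 43.8 and 5.83 CPM and PRDM1 at 38.3 and 18.5 CPM. The 13 cells with TFAP2C also held PECAM1 in 7, GATA3, a trophoblast marker in the paper, in 6 and MESP1 in 6. Against the cells with MIXL1, PECAM1 was at 49.3 and 11.7 CPM, GATA3 at 57.5 and 10.7 CPM and MESP1 at 54.7 and 322 CPM. No UMI of FOXA2, IHH, GSC or LHX1 was counted in the 13 cells with TFAP2C. These were the shallower cells, at 7772 to 59963 UMIs each against 14660 to 163558 in the cells with MIXL1, and the part of depth in these counts was not tested. A further 4 cells held both markers, and 6, all mutant, held neither at 3 UMIs, with 1 to 2 TFAP2C UMIs each. None of the 39 cells was marked as a doublet. Cells of a library were not treated as replicates, and the genotypes were not compared in these groups.

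**Figure D5:**
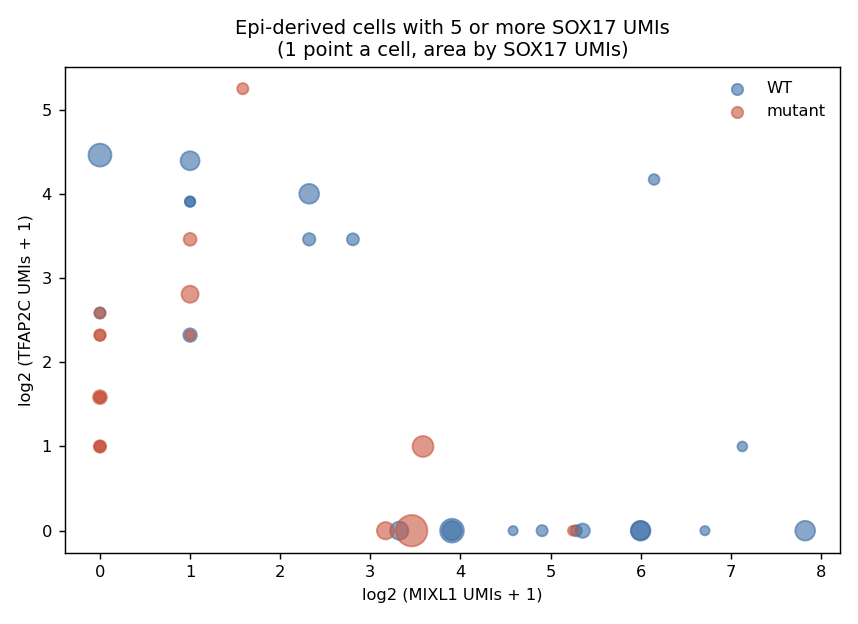
UMIs of MIXL1 and TFAP2C, as log2(UMIs + 1), in the 39 Epi-derived cells with 5 or more SOX17 UMIs; each point is 1 cell, marked by genotype, with its size set by the SOX17 count. Most cells lie along 1 of the axes: 16 hold MIXL1 without 3 TFAP2C UMIs, 13 hold TFAP2C without 3 MIXL1 UMIs and 4 hold both.

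In mesoderm-like cells, a subset of the Epi-derived, SOX17 lay at 3.49 CPM in wild-type Day 12 replicate 2, at 42.6 and 1.15 CPM in the Day 14 wild-type pair, at 12.1 and 10.5 CPM in the Day 12 mutant pair and at 341 CPM in mutant Day 14 replicate 1. That last level rests on 77 UMIs in 23 cells. Only 7 of the 23 held 5 or more SOX17 UMIs, from 6 to 13 each. Of those 7, 6 held 0 or 1 UMI of MIXL1, no UMI of MESP1 or EOMES and 1 to 10 UMIs of TFAP2C. Of the 23, 21 lay in a cluster that scored 0.939 on a mesoderm list and 0.813 on amnion, so its name is a close call. The planned Day 14 test was not made, because mutant Day 14 replicate 2 held 3 such cells, and a model that adds Day 12 was not fitted. In amnion-like cells of Day 14 the SOX17 log2 fold change was 0.99 with an SE of 2.71 (adjusted p = 0.890, edgeR, 1 of 8560 genes called, 0.0117%), which leaves the direction undetermined. On Day 12 amnion-like cells held 0.95 CPM of SOX17 in mutant replicate 1, 34.2 CPM in mutant replicate 2 and 0 CPM in the single wild-type library with such a sum. Of the 39 cells above, 4 were amnion-like cells of mutant Day 12 replicate 2.

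SOX17 was further counted in 3 clusters, picked after the clustering, that held PECAM1 and CDH5, adhesion molecules of endothelium. PECAM1 does not mark endothelium alone here, since it was among the 10 leading genes of 4 other clusters, all trophoblast-like. SOX17 in those 4 clusters is not set beside the values below, and a link of SOX17 with these genes was not tested. A Day 14 cluster of 78 cells, 76 of them mutant, which the naming rule called ExE-Mech-like, held SOX17 in 30 cells at 64.3 CPM, with PECAM1 at 246 CPM, CDH5 at 130 CPM and the angiopoietin receptor TEK at 73.6 CPM, no FOXA2 UMI and 1 IHH UMI. An unnamed Day 14 cluster of 1029 cells, which scored highest on the trophoblast markers but had an endoderm marker, SERPINE2, and none of trophoblast among its 10 leading genes, held SOX17 in 147 cells at 17.8 CPM. In that cluster PECAM1 was at 961 CPM and CDH5 at 255 CPM while TEK was at 4.81 CPM, and CDH5 was at 489 CPM in the 31 cells with 5 or more SOX17 UMIs against 226 CPM in the 882 cells without SOX17. Those 31 cells were also deeper, at a median of 72556 UMIs against 21065.5, and 27 of them were wild-type, all from Day 14 replicate 1. In the unnamed cells of Day 14 as a whole SOX17 was at 30.1 CPM in that library, at 0.763 CPM in the other wild-type library and at 8.89 and 4.09 CPM in the mutant pair, so the level of 17.8 CPM rests largely on 1 library. A Day 12 trophoblast-like cluster of 324 cells, 318 of them mutant, held SOX17 in 45 cells at 10.9 CPM, with PECAM1 at 1024 CPM, CDH5 at 211 CPM and TEK at 1.44 CPM. The Day 12 cluster and the unnamed Day 14 cluster shared the gene WFDC2 and several genes without a symbol among their 10 leading genes. Whether they are the same kind of cell was not tested. FOXA2 and IHH were near 0 in each of the 3 clusters.

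In ExE-Mech-like cells as a whole SOX17 lay at 0 CPM in 4 of 8 libraries and at 1.40 and 1.18 CPM in the Day 14 mutant pair. Its log2 fold change of 2.91 (SE 1.32, interval -0.11 to 5.94, adjusted p = 0.313, edgeR, 2 of 12691 genes called, 0.0158%) rests on the cluster of 78 cells, without which SOX17 was under the filter. With 1 library left out at a time it lay between 2.10, without wild-type Day 14 replicate 2, and 6.62, without wild-type Day 14 replicate 1. In trophoblast-like cells the mutant value of SOX17 was -0.58 (SE 0.84, adjusted p = 0.740, edgeR) and that of IHH -0.17 (SE 0.83, adjusted p = 0.933), with 1 of 14287 genes called, 0.00700%. IHH in ExE-Mech-like cells was at -1.26 (SE 1.15, adjusted p = 0.608).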

How the data were processed

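Single-cell RNA was measured in 11 libraries of cynomolgus macaque embryos. The authors deposited expected counts, UMIs per gene and cell corrected for free RNA with SoupX and given as whole numbers, and the uncorrected counts of the same libraries. Cell Ranger 3.1.0 is named in the submitters' processing notes. Values here start from the corrected table of 33330 cells and 19367 genes, of which 1020 could be paired with a symbol through the supplementary gene lists. The uncorrected table holds 209 cells more. Correction had removed 0.196% to 8.77% of the UMIs of a library. Per-sample columns left unused numbered 0, and 249 cells carried a barcode that another library also held.

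Cells of each day were integrated with Seurat 5.3.0 (reciprocal PCA, wild type as reference, 5000 features, 30 components, resolution 0.8). FOXA2, SOX17, IHH and the paired endoderm regulators and hedgehog genes were left out of the features. A cluster was named where at least 3 markers of a list reached 25% of its cells, the mean of its markers, each relative to its highest cluster, was at least 0.2 and (between lineages) at least 2 times that of the next class, and its 10 leading genes held no more markers of another class than of its own. Clusters far shallower than their libraries and with no marker of their own among those 10 were left unnamed. These thresholds, the 3 genes and the gene lists were chosen with earlier results of these data known. Scrublet, in scanpy 1.11.5, marked 0% to 2.38% of the cells of a library as doublets, which were kept.

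UMIs were summed per library and lineage, leaving out libraries with fewer than 5 cells, and were tested in edgeR 4.0.16 (TMM, filterByExpr, quasi-likelihood, two-sided, Benjamini-Hochberg over all genes, false discovery rate 1%). Endoderm-like sums held the cells of all 11 libraries. CPM were computed from the deposited counts by scaling to the total UMIs of the same sum. Values are not scaled for gene length, so levels of different genes are not on 1 scale. Replicates are libraries of 1 to 3 embryos, so p-values measure the spread between such libraries. Wild-type Day 12 replicate 1, mutant Day 12 replicate 2 and mutant Day 14 replicate 2 held 1 embryo each. The genes named are the 3, list members past the test or among the 5 highest, and the 10 genes with the most similar levels, of which some are not reported here. Shares of cells have exact binomial intervals at 95%, which cover counting error only. The model was tested on simulated data for 4 comparisons. A planted log2 fold change of 1 was recovered in 19% of genes for endoderm-like cells over all days. It was recovered in 15% for Epi-derived cells, and in 0% for endoderm-like cells of Day 14 and of the wild type over time. A planted change of 2 was recovered in 74%, 74%, 12% and 12%. A gene that did not pass may therefore still differ. Alternatives were DESeq2 1.42.0, other size factors (RLE), no filter, the uncorrected counts, no doublets, libraries clustered alone, resolution 0.4, a replicate block, each replicate left out and, added after seeing the data, cells with 10000 or more UMIs alone and ExE-Mech-like cells without 1 cluster. No sequence of these genes was used here.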

Additional observations from a re-analysis of the deposited data

How the results depend on the processing

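None of 441 values of the 3 genes under an alternative passed the test (lowest adjusted p = 0.117), and 413 kept their sign. Counts of genes called were larger under DESeq2 and, in all but trophoblast-like cells, without the filter. In endoderm-like cells DESeq2 called 34 genes (all days), 22 (Day 14), 4 (Day 12), 111 and 29 (Day 14 against Day 10, genotypes together and wild type) and 5 (difference of days), and no filter gave 213, 122, 111, 378, 266 and 58. In Epi-derived, ExE-Mech-like, trophoblast-like and amnion-like cells DESeq2 called 342, 260, 717 and 20, and no filter gave 264, 188 and 252 in Epi-derived, ExE-Mech-like and amnion-like cells. Replicate numbers follow the B numbers of the sample titles, and the paper describes its Day 14 embryos as collected in 2 batches. Correlations of deviations at equal numbers ran from -0.0856 to 0.195. The highest were 0.195 for the wild type of Day 12 and Day 14 and 0.132 for the mutant of the same days. Both lay above 0.1, the correlation set as needed for pairs, and the rest lay below it. Beyond these correlations, whether equal numbers mark a shared batch was not tested, and the libraries were not paired in the main fits. With a replicate block the counts were 9 (all days), 2 (Day 14) and 2 (wild type over time) in endoderm-like cells, 15 in Epi-derived, 1 in ExE-Mech-like, 0 in trophoblast-like and 0 in amnion-like cells. Each library clustered alone gave 0 (Day 14 against Day 10), 4 in Epi-derived, 0 in ExE-Mech-like and 0 in trophoblast-like cells, and no value in amnion-like cells. Uncorrected counts gave 0 in ExE-Mech-like and 0 in trophoblast-like cells, no doublets 0 in trophoblast-like cells, and cells with 10000 or more UMIs 5 for Day 14 against Day 10. With each library clustered alone, where the class itself held other cells, FOXA2 changed sign to 0.55 (all days), -0.27 (Day 14), 2.00 (Day 12), 0.53 (wild type over time) and -2.27 (difference of days), and SOX17 to 0.57 (wild type over time) and -2.34 (difference of days). FOXA2 in the wild type over time, near 0, was 0.015 under DESeq2, 0.012 with RLE factors and 0.047 in cells with 10000 or more UMIs. The share of endoderm-like cells with all 3 genes was 48.9% after thinning and 57.3% with libraries clustered alone. Leaving out 1 replicate at a time, genes called ranged from 0 to 7 over all days (0 without mutant Day 14 replicate 1), from 0 to 0 on Day 14 and on Day 12, from 0 to 11 and 0 to 0 over time, from 0 to 2 for the difference of days, from 1 to 14 in Epi-derived, 0 to 3 in ExE-Mech-like, 0 to 85 in trophoblast-like (85 without wild-type Day 14 replicate 1) and 0 to 3 in amnion-like cells. Values of the 3 genes that changed sign ranged, for FOXA2, from -0.22 to 0.51 on Day 14 and from -0.42 to 0.31 in the wild type over time. For SOX17 they ranged from -0.066 to 0.46 over time, -0.13 to 0.47 for the difference of days, -0.89 to 0.0069 in trophoblast-like and -2.64 to 3.48 in amnion-like cells. For IHH they ranged from -0.048 to 0.52 over all days, -0.81 to 0.71 on Day 14, -0.43 to 0.91 on Day 12, -0.032 to 1.49 in the wild type over time, -1.18 to 0.34 for the difference of days and -0.51 to 0.58 in trophoblast-like cells. The cause of these differences was not tested. Without 1 Day 14 cluster, SOX17 in ExE-Mech-like cells was under the filter. Endoderm-like sums held 11 to 132 cells a library, and the part of cell number in these counts was not tested.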
